A study of Mus musculus with 4 samples.

Results

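Plasminogen activation genes were taken as every transcript probe on the array whose gene name was one of 9 listed genes. These are the activators Plau and Plat, the urokinase receptor gene Plaur, the protease inhibitor gene Serpine2, the plasminogen-binding genes Plgrkt, Anxa2 and S100a10, the endocytic receptor gene Lrp1 and the transglutaminase gene Tgm2. The rule used gene names only. It found 12 of the 39429 probes, and all 9 genes were among the 18390 genes that were measured well enough to be tested. Each of the 9 was well above background on all 4 arrays.

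The RNA came from primary kidney tubular cells of male mice aged 8 weeks on a B6.J background, grown in renal growth medium. There were 2 samples from wild type mice and 2 from SerpinB2-/- mice, which lack Serpinb2, the gene of plasminogen activator inhibitor-2. Every sample of both genotypes had been given the phorbol ester PMA, an activator of protein kinase C, at 100 ng/ml, so no untreated cells were available and the response to PMA was not measured. The labels state neither whether a genotype's samples are different animals or cultures nor which stretch of Serpinb2 was deleted, so each p-value measures the spread between these samples only.

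Plasmin, the protease that dissolves fibrin, is made from plasminogen by the urokinase-type activator (Plau) and the tissue-type activator (Plat). Urokinase is held at the cell surface by its receptor, plasminogen is held there by several binding proteins, and serpins stop the activators by forming tight complexes with them that endocytic receptors remove. Tubular epithelium is a known source of urokinase in the kidney, and plasminogen activator inhibitor-2 inhibits both activators, although much of it stays inside the cell.

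The Serpinb2 probe lies at chr1:109422046-109422105 (mm9, plus strand) and checks the labels. Its scaled signal was 3213 and 3280 in the wild type samples and 5.50 and 7.58 in the SerpinB2-/- samples. Neither SerpinB2-/- sample had it well above background, so only a bound can be given. It was at least 123-fold lower there. The limma Benjamini-Hochberg adjusted p of 0.001 belongs to the measured difference and not to this bound. The probe entered the test through wild type only, where it was higher, so its call supports nothing. Scaled signal here means the array signal divided by the 75th percentile of its array and multiplied by 2007, the mean of the 4 percentiles. Signals of different probes do not give the relative amounts of their RNAs. Sums of signals over a list of genes, given below, mostly follow the brightest probes and are compared only between arrays.

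Plau, the gene of urokinase, was the only one of the 9 genes that passed the test. Its probe at chr14:21662242-21662301 (mm9, plus strand) gave scaled signals of 6172 and 7433 in wild type cells and 4503 and 3980 in SerpinB2-/- cells. Both SerpinB2-/- samples lay below both wild type samples, and the distance between the genotypes was larger than the distance between the samples of either one. Plau fell by 0.68 ± 0.12 on the log2 scale (SE, n = 2 per genotype, 95% interval -0.98 to -0.37), a level 0.625 times that of wild type (limma, Benjamini-Hochberg adjusted p = 0.0277). This change was larger in size than that of 95.6% of the genes tested. The call depended on which arrays were used: the adjusted p from limma was 0.0596 without wild type 1, 0.0873 without wild type 2, 0.0731 without SerpinB2-/- 2 and 0.0436 without SerpinB2-/- 1, with log2 changes of -0.81, -0.54, -0.59 and -0.77. An unmoderated test of the same 4 values (adjusted p = 0.21) and the fit without a filter on dim probes (adjusted p = 0.133) did not call it either.

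Plat, the gene of the tissue-type activator, was measured by a probe at chr8:23892531-23892590 (mm9, plus strand). Its scaled signals were 6052 and 6897 in wild type cells and 5608 and 5559 in SerpinB2-/- cells. The SerpinB2-/- samples were again the lower pair without overlap, yet the gap to the nearer wild type sample was smaller than the gap between the wild type samples. The log2 change was -0.21 ± 0.08 (SE, 95% interval -0.42 to 0.001) and did not pass the test (limma, Benjamini-Hochberg adjusted p = 0.149). The difference between the changes of Plau and Plat was taken within each array so that a constant factor per array cancels. It was -0.47 on the log2 scale, with both SerpinB2-/- samples (-0.38 and -0.55) below both wild type samples (-0.04 and 0.04). An exact permutation test, two-sided, gave p = 0.333, the smallest value that 2 against 2 samples allow.

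**Figure D1:**
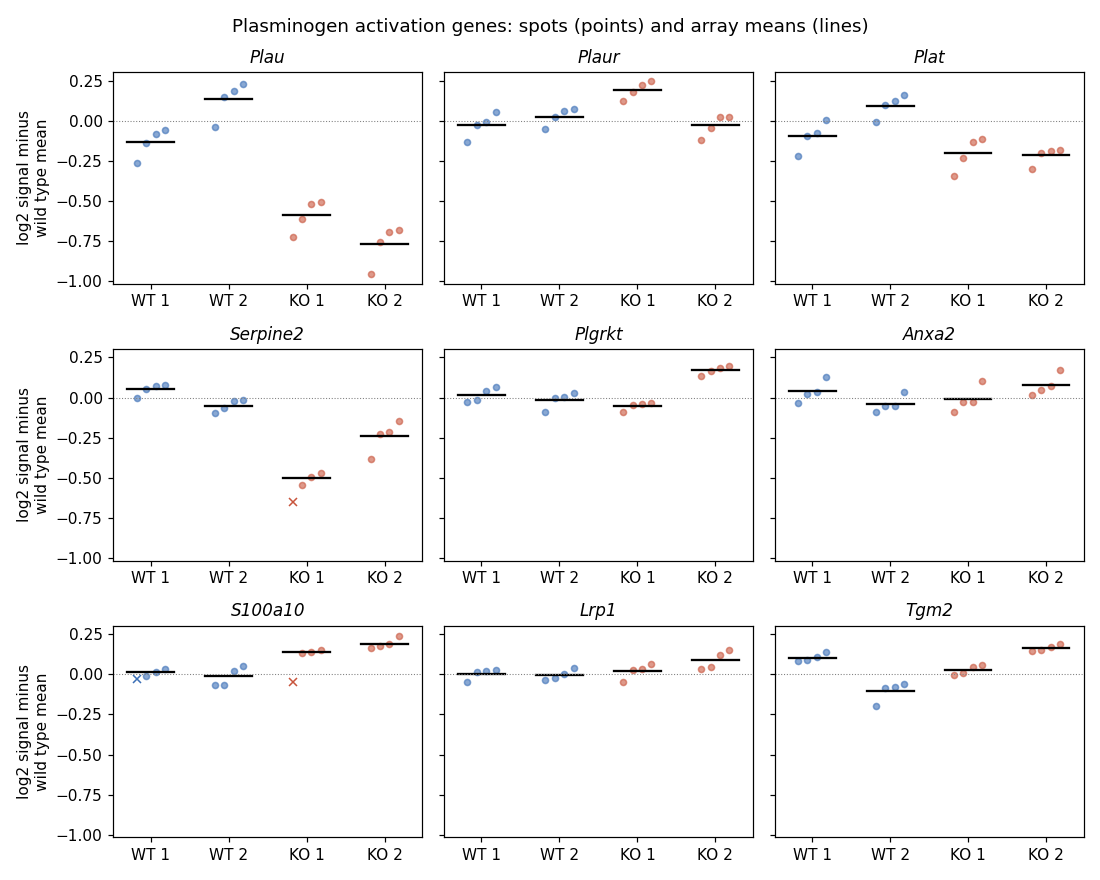
The log2 signal of the 9 genes on each array, minus the mean of the wild type arrays, with 1 panel per gene. WT is wild type and KO is SerpinB2-/-, points are the spots of a probe, lines are their means per array, and crosses are spots the scanner software marked as outliers, which were left out. In Plau both KO arrays lie well below both WT arrays, and in Plaur, Plgrkt, Anxa2 and Tgm2 the genotypes overlap.

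Plaur encodes the receptor that binds urokinase at the cell surface. It did not pass the test. Its probe at chr7:25260569-25260628 (mm9, plus strand) had scaled signals of 41458 and 42962 in wild type cells and 48268 and 41352 in SerpinB2-/- cells. One SerpinB2-/- sample was the highest of the 4 and the other the lowest, so the genotypes overlapped. The log2 change was 0.08 ± 0.09 (SE, limma adjusted p = 0.569), and its 95% interval covers a SerpinB2-/- level from 0.898 to 1.25 times that of wild type. The change of Plau minus that of Plaur was -0.76 on the log2 scale, with SerpinB2-/- samples at -0.78 and -0.74 and wild type samples at -0.11 and 0.11. The exact two-sided permutation p was again 0.333, and adjustment over the 3 pairs of genes compared this way leaves it at 0.333.

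Phorbol esters are known to act on many genes through AP-1, a transcription factor, and all cells here had been given PMA. The letters searched for AP-1 were TGANTCA, where N allows any base. RefSeq promoter windows (assembly GRCm38.p6, 250 bases before to 50 bases after a start site) were matched for 5 of the 9 genes, namely Plaur, Serpine2, Plgrkt, Anxa2 and Lrp1. The windows of Plaur and Anxa2 held 1 AP-1 match each, as did those of Serpinb2, on a search of both strands, against 7.81% of the 32851 windows of all genes. The windows of Serpine2, Plgrkt and Lrp1 held no such letters. The GC box GGGCGG, searched on both strands and found in 35.7% of all windows, occurred in all 5, with 3 matches in Plaur, 6 in Serpine2, 2 in Plgrkt, 3 in Anxa2 and 1 in Lrp1, and not in the windows of Serpinb2. The AP-1 matches are shown with their flanks because they are what the windows of Plaur and Anxa2 share with that of the deleted gene. The middle base is C in Plaur, G in Anxa2 and A in Serpinb2. Capitals mark the match, which begins at position -69 from the start site in Plaur, -95 in Anxa2, and -94 or -181 from the 2 start sites listed for Serpinb2. All 3 are on the plus strand, at chr7:24462404-24462430, chr9:69453578-69453604 and chr1:107511319-107511345. A match describes the letters and is not a measured binding site.
Plaur: cccctggagcTGACTCActctttagca
Anxa2: ccaagttggaTGAGTCAcccagcaggg
Serpinb2: agtaaaatgtTGAATCAtacaaagaat

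Serpine2 encodes protease nexin-1, a serpin that inhibits thrombin, urokinase and plasmin. It had the largest change among the 8 genes that did not pass the test. Its scaled signals were 991 and 923 in wild type cells and 675 and 810 in SerpinB2-/- cells, and both SerpinB2-/- samples were the lower ones. The log2 change was -0.37 ± 0.11 (SE, 95% interval -0.65 to -0.10), a level between 0.638 and 0.936 times that of wild type, with a limma adjusted p of 0.0822. The adjusted p went below 0.05 when the prior spread followed the signal level (0.0489) and without SerpinB2-/- 2 (0.0469, log2 change -0.50). The probe is 60 bases long and its match on chromosome 1 spans 2618 bases (chr1:79793476-79796093, mm9, minus strand), so it crosses an intron. It is shown because it is the only probe among those used for the 9 genes whose match is split in this way.
Serpine2 probe: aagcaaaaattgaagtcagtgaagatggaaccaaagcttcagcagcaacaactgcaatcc
Serpine2 is on the same chromosome as Serpinb2, 29.6 Mb from its probe.

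The genes whose products bring plasminogen to the cell surface showed no change past the threshold. Plgrkt encodes a membrane receptor for plasminogen. Its probe at chr19:29423415-29423474 (mm9, minus strand) read 4695 and 4594 in wild type cells and 4476 and 5223 in SerpinB2-/- cells. The SerpinB2-/- samples enclosed the wild type pair, and the log2 change was 0.06 ± 0.09 (SE, limma adjusted p = 0.686), with an interval from 0.884 to 1.23 times the wild type level. Anxa2, annexin A2, binds phospholipid at the membrane and pairs with the S100a10 product. Its probe at chr9:69339532-69339591 (mm9, plus strand) read 254202 and 240529 in wild type cells and 245684 and 261193 in SerpinB2-/- cells. The genotypes overlapped, and the log2 change of 0.03 ± 0.07 (SE, limma adjusted p = 0.744) leaves a range from 0.909 to 1.15 times the wild type level. No spot was saturated on any array.

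S100a10 encodes p11, the partner of annexin A2 that binds plasminogen and the tissue-type activator. Its probe at chr3:93368437-93368496 (mm9, plus strand) read 64783 and 63607 in wild type cells and 70849 and 73344 in SerpinB2-/- cells. Both SerpinB2-/- samples were above both wild type samples, with close values within each genotype. The log2 change was 0.17 ± 0.06 (SE, 95% interval 0.02 to 0.32), which did not pass after adjustment over all genes (limma, Benjamini-Hochberg adjusted p = 0.118). With arrays scaled by their medians it was 0.30 (limma adjusted p = 0.0246), where the median over all genes moved from 0.01 to 0.14. The change of S100a10 minus that of Anxa2, in which a constant factor per array cancels, was 0.13 on the log2 scale, with SerpinB2-/- samples at 0.15 and 0.11 and wild type samples at -0.03 and 0.03 (exact two-sided permutation p = 0.333). After quantile normalization, which is not such a factor, the log2 changes were 0.09 for S100a10 and 0.01 for Anxa2.

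Lrp1 encodes the endocytic receptor that takes up complexes of activators with their inhibitors. The brightest of its 3 probes, at chr10:126975573-126975632 (mm9, minus strand), read 4387 and 4365 in wild type cells and 4438 and 4656 in SerpinB2-/- cells. The SerpinB2-/- samples were both higher, by little, and the log2 change was 0.05 ± 0.06 (SE, limma adjusted p = 0.552, interval 0.935 to 1.15 times wild type). A dimmer Lrp1 probe at chr10:127026228-127026287 gave a log2 change of -0.04, and the other, at chr10:127037088-127037147, was not well above background on any array. Tgm2 encodes tissue transglutaminase, which cross-links proteins and is known to couple plasminogen activator inhibitor-2 to other proteins. Its brighter probe at chr2:157942275-157942334 (mm9, minus strand) read 89926 and 77785 in wild type cells and 85237 and 93769 in SerpinB2-/- cells. The genotypes overlapped, with a log2 change of 0.10 ± 0.10 (SE, limma adjusted p = 0.53, interval 0.897 to 1.27 times wild type). The second Tgm2 probe, at chr2:157942431-157942490, gave 0.01 and overlapped too.

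Of the 9 genes, 1 passed the test, lower in SerpinB2-/- cells, and 0 passed as higher. Over all 18390 genes the share that passed was 15.3%, made up of 5.92% of all genes higher and 9.37% of all genes lower in SerpinB2-/- cells, so the count among the 9 is near the background and is no result about them as a group. Before adjustment, limma gave 3 of the 9 a p under 0.05, namely Plau, Serpine2 and S100a10, beside 6258 of all 18390 genes. The genotypes did not overlap in 5 genes, with 3 lower (Plau, Plat and Serpine2) and 2 higher (S100a10 and Lrp1). Over all genes that share was 64.2%, with 31.6% lower and 32.6% higher. The median log2 change of the 9 was 0.05, beside 0.01 over all genes, and their median size of change was 0.10, beside 0.13. The SD between the 4 spots of a probe on 1 array ranged from 0.0095 to 0.13 on the log2 scale, with a median of 0.05, for the probes used.

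**Figure D2:**
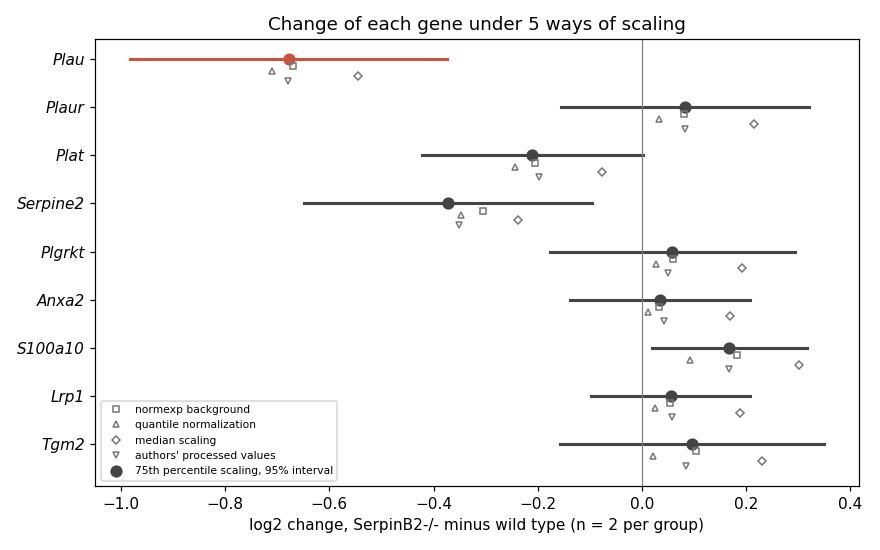
The log2 change of the 9 genes, SerpinB2-/- minus wild type (x axis, n = 2 per genotype). Filled circles with bars are the limma estimate with its 95% interval after scaling to the 75th percentile, red where the adjusted p was under 0.05, and open symbols are the same change under 4 other ways of treating the signal. Plau lies below 0 under each of them, and median scaling moves every gene to the right.

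The 3 genes closest to Plau over the 4 arrays were found by the root mean square difference of their log2 values after subtracting each gene's own mean. They were an unnamed transcript, ENSMUST00000103291 (0.0089), Gm3776 (0.013) and Gm1993 (0.019). In all, 30 of the 18389 other genes lay within 0.05 of Plau.

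Of 19 other activators, activating proteases and inhibitors, 11 were measured, with 4 lower and 1 higher in SerpinB2-/- cells and a median log2 change of -0.20. The counts of this list and of those below stand beside 9.37% lower and 5.92% higher over all genes tested, and nothing particular to a list was tested. Counts below under median scaling stand beside 4356 higher and 1228 lower of 18390 genes. Those after quantile normalization stand beside 1088 higher and 1226 lower. Counts of unadjusted limma p-values under 0.05 stand beside 6258 of the 18390 genes. Hpn, hepsin, a membrane serine protease able to activate urokinase, had scaled signals of 1734 and 1994 in wild type cells and 794 and 895 in SerpinB2-/- cells. The SerpinB2-/- samples were both well below the wild type samples, and Hpn fell by 1.14 ± 0.10 on the log2 scale (limma adjusted p = 0.00859). St14, matriptase, an epithelial membrane protease that also activates urokinase, read 6376 and 6694 in wild type cells and 3732 and 3855 in SerpinB2-/- cells. It fell by 0.78 ± 0.06, with no overlap and little spread within each genotype (limma adjusted p = 0.00759). Hgfac, the activator of hepatocyte growth factor, read 2154 and 2530 in wild type cells and 1451 and 1285 in SerpinB2-/- cells, a log2 change of -0.77 ± 0.11 (limma adjusted p = 0.0183). Habp2, a hyaluronan-binding protease that can activate urokinase, was dim, at 96.0 and 102.3 in wild type cells and 56.8 and 59.4 in SerpinB2-/- cells. Its log2 change was -0.77 ± 0.07 (limma adjusted p = 0.00812) and -0.39 after normexp background correction, and it was named after its values were seen.

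The 1 gene of this list that rose was Serping1, the inhibitor of complement C1 and of kallikrein. It read 147.0 and 166.8 in wild type cells and 310.0 and 264.9 in SerpinB2-/- cells, all higher in the latter, and rose by 0.87 ± 0.11 on the log2 scale (limma adjusted p = 0.0141). Leaving out a wild type array ended the calls of Hgfac (limma adjusted p = 0.0549 without wild type 1 and 0.0663 without wild type 2) and Serping1 (0.0694 and 0.0511). Ctsb, cathepsin B, a lysosomal protease that can activate urokinase and was named after its values were seen, had a log2 change of -0.20 ± 0.06 and did not pass (limma adjusted p = 0.102). Klkb1, plasma kallikrein, which can also activate urokinase and was likewise named afterwards, overlapped between genotypes (log2 change -0.03 ± 0.12, limma adjusted p = 0.866). Plg, the gene of plasminogen itself, was among the 8 genes of the list that were not tested because no probe was well above background on both arrays of a genotype.

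The other proteins known to bind plasminogen were measured by 8 genes, with 2 lower, 0 higher and a median log2 change of -0.17. Itgb2, the leukocyte integrin chain that forms Mac-1 with Itgam, read 373 and 391 in wild type cells and 289 and 234 in SerpinB2-/- cells, a log2 change of -0.55 ± 0.11 (limma adjusted p = 0.0415). Krt8, keratin 8, had a log2 change of -0.29 ± 0.06 (limma adjusted p = 0.0368), and its other probe gave -0.59. Neither call held when a wild type array was left out (limma adjusted p = 0.133 without wild type 1 and 0.149 without wild type 2 for Itgb2, and 0.158 and 0.123 for Krt8), and without SerpinB2-/- 2 they were 0.0686 and 0.11. Krt8 also lost its call without SerpinB2-/- 1 (0.136), both lost it under median scaling (0.0565 and 0.0981), which left 0 calls in this list (4 unadjusted p-values under 0.05 by limma at the percentile scaling), and Itgb2 lost it after quantile normalization (0.0812). Eno1, enolase, a glycolytic enzyme that also binds plasminogen at the cell surface, was named after its values were seen, and its log2 change was 0.05 ± 0.06 (limma adjusted p = 0.606).

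Among 8 listed partners of the urokinase receptor, 7 were measured, 1 was lower and 0 were higher, with a median log2 change of 0.15. The gene that fell was Itga3, an integrin chain that binds laminin, at 13846 and 14282 in wild type against 11028 and 9952 in SerpinB2-/- cells. Its log2 change was -0.42 ± 0.07 (limma adjusted p = 0.0278), and it was not called without wild type 1 (0.11), wild type 2 (0.119) or SerpinB2-/- 2 (0.087), or under median scaling (0.0535). Under median scaling the counts of this list turned to 3 higher and 0 lower, with a median of 0.28, beside 4356 of 18390 genes higher. Of 12 other LDL receptor family genes, 11 were measured and only Lrp12 passed, at 2602 and 2592 in wild type cells and 3205 and 3520 in SerpinB2-/- cells. Its log2 change was 0.37 ± 0.07 (limma adjusted p = 0.0333), and leaving out any 1 array brought the adjusted p to between 0.0505 and 0.133. Median scaling gave 3 higher and 0 lower in this family. Lrp2, megalin, the uptake receptor of the proximal tubule, which was named after its values were seen, overlapped between genotypes with a log2 change of 0.01 ± 0.06.

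Of 11 other annexins 10 were measured and limma called 0, with log2 changes from -0.29 to 0.15 and 3 unadjusted p-values under 0.05 (1 call, higher, under median scaling). Of 13 other S100 genes 11 were measured, with 1 higher and 1 lower (3 and 1 under median scaling). S100g, the calcium buffer calbindin-D9k of distal tubule, read 652 and 536 in wild type cells and 1424 and 1048 in SerpinB2-/- cells and had a log2 change of 1.05 ± 0.18 (limma adjusted p = 0.0269). S100a14 had a log2 change of -0.61 ± 0.12 (limma adjusted p = 0.0363) and -0.29 after normexp correction. Without wild type 1 or wild type 2 the limma adjusted p was 0.0759 and 0.101 for S100g and 0.146 and 0.108 for S100a14, which was also not called without SerpinB2-/- 2 (0.0573), after quantile normalization (0.0985) or in the authors' processed values (0.06).

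Only 4 of 9 other transglutaminase genes were measured, and the pair that passed was dim, 1 gene higher and 1 lower. F13a1, the coagulation factor XIII subunit that cross-links fibrin, read 31.9 and 33.4 in wild type cells and 43.0 and 49.4 in SerpinB2-/- cells, with a log2 change of 0.50 ± 0.09 (limma adjusted p = 0.0282). Tgm1, the transglutaminase of cornified epithelium, was not well above background in SerpinB2-/- cells and was at least 1.75-fold lower there (limma adjusted p = 0.0416). It entered the test through wild type only, where it was higher, so its call supports nothing. After normexp correction neither passed (limma adjusted p = 0.209 and 0.207), nor did they without wild type 1 (0.127 for each) or wild type 2 (0.0966 and 0.147), and F13a1 was not called without SerpinB2-/- 2 (0.0699). The authors' processed values called neither (limma adjusted p = 0.0744 and 0.0539), and quantile normalization did not call Tgm1 (0.0563). Of 10 genes whose products plasmin cleaves or signals through, 7 were measured, with 1 higher and 1 lower. Fgb, a fibrinogen chain, read 76.5 and 87.7 in wild type cells and 190.8 and 236.0 in SerpinB2-/- cells, a log2 change of 1.37 ± 0.13 (limma adjusted p = 0.0093, and 0.0532 without wild type 1). Mmp13, a collagenase whose inactive form plasmin can cut, had a log2 change of -0.46 ± 0.06 (limma adjusted p = 0.0139, and 0.0742, 0.0746 and 0.0517 without wild type 1, wild type 2 and SerpinB2-/- 2).

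**Figure D3:**
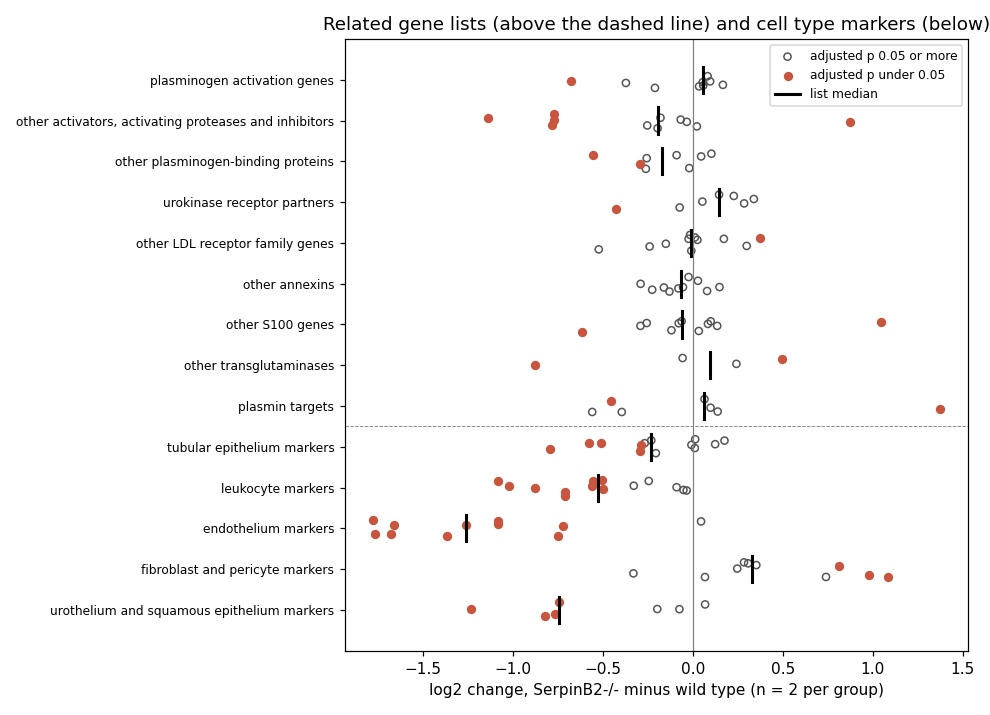
The log2 change, SerpinB2-/- minus wild type (x axis, n = 2 per genotype), of each measured gene in the related gene lists and in the cell type marker lists. Each point is a gene, filled where the limma adjusted p was under 0.05, and the bar is the list's median. Plau is the single filled point among the 9 genes, and the endothelium markers have the lowest median, -1.26.

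Markers of several cell types moved with the genotype, and in bulk RNA fewer cells of a type cannot be told apart from less RNA per cell. Of 14 tubular epithelium markers 13 were measured, with Lrp2 and Cubn detected and Slc34a1 dim. Of these, 5 were lower and 0 higher in SerpinB2-/- cells (median log2 change -0.23), among them Cdh1, E-cadherin, at -0.79 ± 0.06 (limma adjusted p = 0.00789), and Epcam at -0.58 ± 0.11 (limma adjusted p = 0.0383). Lrp2, Cubn and Aqp1 of the same list had log2 changes of 0.01, 0.01 and -0.01 and Pax8 0.18, none past the test. The summed scaled signal of the list was 570001 and 570557 in wild type cells and 452072 and 474687 in SerpinB2-/- cells, and Krt18, Krt8 and Cdh16 made up 95.7% to 96.1% of it. The sum of the other 10 was 23540 and 24502 against 17793 and 18827. All 14 leukocyte markers were measured, with 9 lower, 0 higher and a median of -0.53. Their sum was 28566 and 26266 in wild type cells and 22768 and 21771 in SerpinB2-/- cells. Itgam, which overlapped between genotypes, was the largest part of this sum (12577 and 11344 against 11039 and 11405). Of 12 endothelium markers 11 were measured, with 10 lower, 0 higher and a median of -1.26, and their sum was 16376 and 15861 against 9122 and 11521. Of 11 fibroblast and pericyte markers 10 were measured, with 3 higher, 0 lower and a median of 0.33. Their sum was 352161 and 286390 against 371564 and 430495. Acta2, which overlapped between genotypes, was the largest part of this sum (189018 and 146025 against 186282 and 226893). Of 10 markers of urothelium and squamous epithelium 7 were measured, with 4 lower, 0 higher and a median of -0.75, and the 3 uroplakin genes Upk1b, Upk2 and Upk3a were not measured. The sum of the 7 was 53138 and 55557 against 31784 and 32447. Most of it came from Krt7 (25621 and 27142 against 14407 and 15442) and Krt19 (21648 and 22879 against 13374 and 12796).

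The sums of the tubular, leukocyte, endothelial and urothelial lists were thus lower in SerpinB2-/- cells without overlap. Plau, Hpn and St14 moved in the same direction. Each sum mostly follows a few bright genes, so it is not a measure of a cell type's share. The part of these cell types in the results for Plau, Hpn and St14 was not tested. Other scalings moved some of these counts, to 4 lower in the leukocyte list after quantile normalization, and under median scaling to 7 higher in the fibroblast and pericyte list and to 3 lower and 1 higher in the tubular list. Over all 18390 genes median scaling called 4356 higher and 1228 lower, and quantile normalization called 1226 lower. The leading markers were Plvap (-1.78 ± 0.24) and Robo4 (-1.77 ± 0.22) for endothelium, Fcgr1 (-1.08 ± 0.06) and Coro1a (-1.02 ± 0.10) for leukocytes, Postn (1.09 ± 0.16) and Col6a3 (0.98 ± 0.07) for fibroblasts and pericytes, and Ivl (-1.23 ± 0.09) and Krt7 (-0.82 ± 0.07) for urothelium and squamous epithelium, as log2 changes with their SE. After normexp correction Fcgr1 was at -0.56 and Ivl at -0.79. All of these leading markers passed the test with all 4 arrays. Other markers of the same lists did not pass. Among them were Kdr (0.05) for endothelium, and Cd14 (-0.03), Cd3e (-0.05) and Itgam (-0.09) for leukocytes. So were Krt5 (-0.07), Krt14 (0.07) and Trp63 (-0.20) for urothelium and squamous epithelium, and Pdgfra (0.07) and the dim Dcn (-0.33) for fibroblasts and pericytes. Plvap, Robo4, Coro1a, Postn and Epcam did not pass without wild type 1 (limma adjusted p = 0.0638, 0.0694, 0.0555, 0.0717 and 0.0596) or without wild type 2 (0.0711, 0.0676, 0.0534, 0.0867 and 0.101), and Epcam did not pass without SerpinB2-/- 1 (0.107) or SerpinB2-/- 2 (0.0659), or in the authors' processed values (0.0564). Without a filter on dim probes limma called 1 gene of all, Serpinb2, and the unmoderated test called 0 (4445 genes had an unadjusted p under 0.05), so those settings ended every other call given here. The arrays were of like brightness, with a 75th percentile of 1903 to 2144 signal units and 23404 to 24471 probes well above background. All 4 lay on 1 slide and were scanned together, with wild type at positions 1 and 2 and SerpinB2-/- at positions 3 and 4, so position and genotype cannot be told apart.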

How the data were processed

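One-colour arrays (Cy3, 150 ng of total RNA) were read by Agilent Feature Extraction 10.7.3.1, per the submitters' processing notes. The deposited intensity is the authors' scanner output, which had its background subtracted, per the file headers. The authors' deposited table of processed values, also intensity, has a 75th percentile of 1500 and a minimum of 4 in each column, and column medians of 76, 77, 68 and 71. It is linear and shows no centring of genes, and how it was made is not given in the sources used here.

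Control and outlier-marked spots were left out and the 4 spots of a probe averaged. Log2 signals were scaled to each array's 75th percentile. A gene was its brightest probe with more than 50% of spots well above background on both arrays of a genotype. Probes were named through a gene table of assembly GRCm38.p6 (28328 of 39429 by accession, 243 by older symbol, 3400 by symbol, 7458 keeping the file's name), and probe positions are from the files (mm9). SerpinB2-/- was set against wild type by lmFit and eBayes (no trend) of limma 3.58.1, run in R 4.3.3. Benjamini-Hochberg adjustment was over 18390 genes, with a threshold of 0.05. The procedure was also run on simulated data with independent noise, which cannot show how far the calls depend on scaling or moderation. Bounds set the wild type mean against, per SerpinB2-/- array, the higher of the probe's signal and the lowest signal well above background. The named genes were the 9 genes, Serpinb2, up to 4 called genes of each related list and 2 of each marker list by size of change, and the 3 genes nearest to Plau. The genes and lists were chosen with earlier results of these data known. Precision is limited by how many arrays there were. The 19 alternatives covered background, scaling, filters, probes, the fit and each array left out.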

Additional observations from a re-analysis of the deposited data

How the results depend on the processing

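Plau was below 0 in all 19 alternatives (log2 change -0.81 to -0.54) and past the threshold in 14. Its call ended without wild type 1 (adjusted p = 0.0596), wild type 2 (0.0873) or SerpinB2-/- 2 (0.0731), without a filter on dim probes (-0.68, 0.133) and in the unmoderated two-group test (-0.68, 0.21), all from limma or the same linear model. With median scaling the count among the 9 genes was 2, where S100a10 joined at 0.30 (limma adjusted p = 0.0246), beside 5584 of all 18390 genes. With a trended prior the count among the 9 was also 2, where Serpine2 joined at -0.37 (0.0489), beside 3704 of all 18390 genes. It was 0 without a filter (2 unadjusted p-values under 0.05, beside 5592 of 29875 genes) and 0 in the unmoderated test (1 such value). Without SerpinB2-/- 2 the log2 change of Serpine2 was -0.50. Over all genes the count of 2811 became 5584 with median scaling, 1 without a filter, 0 in the unmoderated test (4445 unadjusted p-values under 0.05) and 403 to 1491 with 1 array left out.

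Of the calls 38.7% were higher in SerpinB2-/- cells, against 78% with median scaling, whose median over all genes was 0.14, and 28.6% with the percentile of probes detected on all arrays. Under that last scaling Anxa2 turned to -0.0041. With 1 array left out Anxa2 ranged from -0.0093 to 0.079, Tgm2 from -0.0084 to 0.20, Plaur from -0.029 to 0.19 and Plgrkt from -0.053 to 0.17. The cause of these shifts was not tested. The numbers in the titles gave 2 pairs only, whose deviations correlated at 0.26 over genes, so they are not shown to pair the samples. With the replicate number as a block 2088 genes and 1 of the 9 passed, and Plau kept its call (adjusted p = 0.0215). Krt8 and Lrp12 did not (0.095 and 0.0542). With 2 arrays per genotype, differences of the size seen in Plat, Serpine2 and S100a10 did not pass over all genes.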
